A study of Mus musculus with 26 samples.

Results

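Rmrp, Rpph1, Rn7sk, Rn7s1, Rn7s2 and Rn45s are noncoding RNAs whose mature forms carry no polyA tail, and they were followed through 16 RNA libraries that had been selected for polyA. They make up 6 of the 20430 rows of the RNA table. They were selected on their measured RNA values in these same libraries, over the 8 groups and as a share of each library, so their levels and fold changes are given as a description and without a test. The cells were NIH3T3, an established line of mouse embryonic fibroblasts. Heat was applied at 44 °C for 2 h or at 42 °C for 8 h, and these groups share one control, labelled as that for heat stress and here called the heat control, whose temperature the labels do not give. Oxidative stress by H2O2 and osmotic stress by KCl lasted 2 h or 7 h each and share a second control, here the H2O2/KCl control. Each of the 8 groups had 2 replicates, and the labels do not say whether these were separate cultures, so the p-values below measure only the spread between these libraries. All groups are of the same line, with no genetic change named in the labels. The series asks whether stressed cells carry on transcribing beyond a gene's end and into its neighbour.

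Rpph1 is the RNA subunit of RNase P, which cuts the 5′ leader from precursor tRNAs, and Rmrp is that of RNase MRP, which takes part in processing the precursor of ribosomal RNA. Rn7sk is the 7SK RNA, which holds the elongation kinase P-TEFb in an inactive particle. Rn7s1 and Rn7s2 are copies of the 7SL RNA, the scaffold of the signal recognition particle that brings ribosomes making secretory proteins to the endoplasmic reticulum. All of these are made by RNA polymerase III. Rn45s is the 45S precursor of ribosomal RNA, made by RNA polymerase I in the nucleolus, and its row can also take reads from the mature ribosomal RNAs cut from it. A polyA-selected library records only what the selection retained, so more of such an RNA and a larger part of it passing the selection cannot be told apart. Fewer cells and less RNA per cell cannot be told apart either.

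The libraries held between 24441877 and 45244430 expected counts, the number of reads that the program RSEM assigns to each gene. The fibroblast markers Col1a1, Col1a2, Col3a1, Vim, Fn1 and Pdgfrb summed to between 3607 and 9969 TPM (a level per transcript length that sums to 1000000 in a library). The markers of leukocytes, endothelium and epithelium summed to at most 3.26 TPM in any library, and the T cell marker Cd3e was at 0 in all 16. Rn7s1 and Rn7s2 had the same count and the same TPM in 16 of 16 libraries. They are near-identical copies between which reads cannot be assigned, so they are described as 1 measurement, written Rn7s1/2. Its levels and ratios are those of 1 row, while the shares of the library add both rows.

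After heat all 6 RNAs stood above the heat control in both libraries of both treatments, and 42 °C for 8 h gave the higher level each time. Among all genes tested, 42.8% had both libraries at 44 °C above both control libraries and 40.4% at 42 °C. Since the rule used these contrasts, nothing is read from the count of 6 of 6. The sizes differed by RNA: at 42 °C the fitted log2 fold change ran from 2.12 for Rn7s1/2 to 8.30 for Rmrp. Ranked by that fold change among 12747 genes, Rmrp was 3, Rpph1 5, Rn7sk 14, Rn45s 22 and Rn7s1/2 132. At 44 °C the ranks were 45 for Rmrp, 59 for Rn45s, 97 for Rpph1, 245 for Rn7sk and 1251 for Rn7s1/2. Rmrp reached the count minimum through the heated libraries alone.

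**Figure D1:**
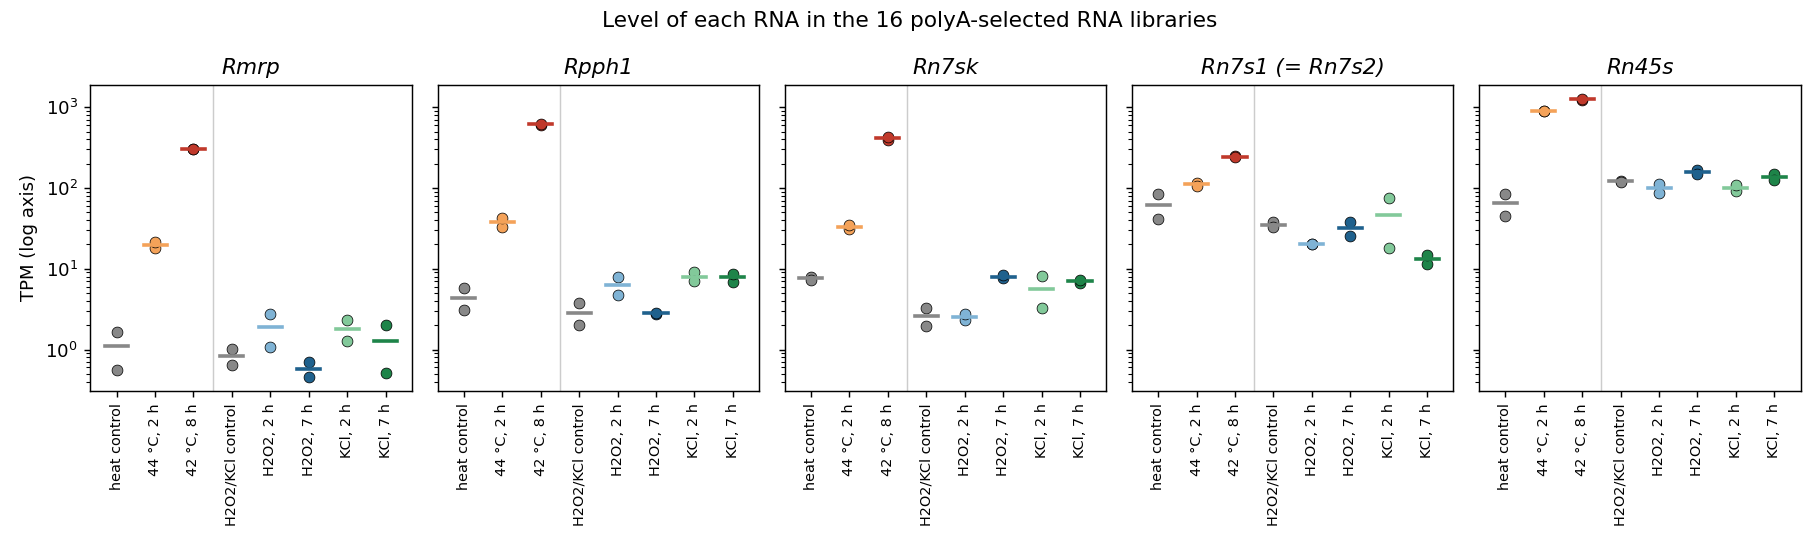
TPM of each RNA (log axis) in the 16 libraries; points are single libraries, horizontal bars the mean of the 2 replicates, and a grey line separates the heat from the H2O2/KCl experiment. The 2 heat groups lie apart from all others in every panel, with Rmrp at 308 and 305 TPM at 42 °C against 0.56 and 1.67 TPM in its control.

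Rmrp was nearly absent without heat and went through the widest range. Its level was 0.56 and 1.67 TPM in the heat control, 18.2 and 21.3 TPM after 44 °C, and 308 and 305 TPM after 42 °C. Behind these levels stood 2 and 5 counts in the heat control, 51 and 58 after 44 °C, and 1007 and 797 after 42 °C. The 3 groups did not overlap, and the replicates at 42 °C lay closer together than those of the control. Relative to the control the summed counts, scaled to library totals, were 18.2 times higher at 44 °C (95% exact interval 8.55 to 46.4) and 297 times higher at 42 °C (144 to 741). These intervals cover counting error only, and their width comes from the 7 control counts. The log2 fold change was 4.09 (SE 0.34) at 44 °C and 8.30 (SE 0.18) at 42 °C. Without heat control replicate 2 the value at 42 °C was 9.17, and without replicate 1 it was 7.68, so the size of the fold turns on the control library used.

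Rpph1 ran alongside Rmrp at a higher level. It stood at 3.08 and 5.71 TPM in the heat control, 33.1 and 43.2 TPM after 44 °C, and 610.4 and 616 TPM after 42 °C. The groups were apart, and Rpph1 had more TPM than Rmrp in every one of the 16 libraries. The log2 fold change was 3.08 (SE 0.23) at 44 °C and 7.34 (SE 0.14) at 42 °C. From 44 °C to 42 °C the 2 RNAs differed by almost the same amount, with log2 values of 4.26 (SE 0.10) for Rpph1 and 4.21 (SE 0.11) for Rmrp. The ratio of their TPM was 1.82 and 2.03 at 44 °C and 1.98 and 2.02 at 42 °C, against 5.50 and 3.42 in the heat control, where Rmrp had 2 and 5 counts.

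Rn7sk followed the same order of groups. Its level was 7.88 and 7.30 TPM in the heat control, 30.7 and 35.2 TPM after 44 °C, and 396 and 427 TPM after 42 °C. It was the RNA with the most even control libraries, and its groups were also apart. The log2 fold change was 2.04 (SE 0.17) at 44 °C, 5.94 (SE 0.11) at 42 °C, and 3.89 (SE 0.087) for 42 °C relative to 44 °C. Rmrp, Rpph1 and Rn7sk were thus between 14.8 and 19.2 times higher after 8 h at 42 °C than after 2 h at 44 °C. Temperature and duration changed together between these groups and cannot be told apart.

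Rn7s1/2, also a product of RNA polymerase III, differed far less between groups. Each of the 2 rows stood at 84.0 and 40.9 TPM in the heat control, 116 and 107 TPM after 44 °C, and 246 and 240.4 TPM after 42 °C. The control libraries were far apart, and the 44 °C libraries lay above the upper one by a small margin. The log2 fold change was 0.74 (SE 0.20) at 44 °C and 2.12 (SE 0.18) at 42 °C. It depended on the control library: at 44 °C it was 1.38 without heat control replicate 1 and 0.34 without replicate 2. Without heat Rn7s1/2 had the highest TPM of the RNA polymerase III transcripts among the 6, at 27.3 and 7.17 times the TPM of Rpph1 in the control libraries. At 42 °C Rn7s1/2 was below Rpph1, with ratios of 0.403 and 0.390. These ratios use 1 of the 2 rows and so understate the 7SL RNA as a whole. With both rows added it was still below Rpph1 at 42 °C, but above Rmrp and Rn7sk.

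Rn45s had the smallest difference between the heat treatments among the 6. Its level was 84.8 and 45.6 TPM in the heat control, 901 and 896 TPM after 44 °C, and 1227 and 1272 TPM after 42 °C. The libraries at 44 °C lay close to those at 42 °C and far above the control. The log2 fold change was 3.72 (SE 0.19) at 44 °C and 4.45 (SE 0.19) at 42 °C, and 42 °C exceeded 44 °C by only 0.73 (SE 0.17), or 1.66 times. Its TPM were therefore 27.2 and 20.7 times those of Rpph1 at 44 °C but 2.01 and 2.06 times at 42 °C. Without heat control replicate 1 the value at 42 °C was 4.97, and without replicate 2 it was 4.07. In the heat control Rn45s and Rn7s1/2 were both higher in replicate 1, and the TPM ratio of Rn45s to 1 row of Rn7s1/2 was 1.01 and 1.11. Rmrp and Rpph1 were higher in replicate 2.

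The direct comparison of 42 °C with 44 °C, which uses no control library, put both libraries at 42 °C above both at 44 °C for 6 of 6 RNAs. Of all genes tested, 43.7% did so, and here too the members had been selected on these values. On scaling to the library total, which moved the median log2 fold change of all genes at 42 °C to -0.15 from -0.014, no member changed direction in either heat treatment.

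Together the 6 RNAs took a small part of each library, which was larger after heat. By expected counts they held 0.0246% and 0.0133% of the heat control libraries, 0.241% and 0.245% at 44 °C, and 0.364% and 0.374% at 42 °C. The 95% Clopper-Pearson intervals, which cover counting error only, did not reach across groups; at 42 °C they were 0.362% to 0.366% and 0.372% to 0.376%. Counts follow length, and Rn45s supplied between 93.0% and 99.1% of the members' counts in the 16 libraries. Without Rn45s the share was 0.00132% on average in the heat control, 0.00301% at 44 °C and 0.0189% at 42 °C. Per length the balance was different: Rn45s made up 32.1% of the members' summed TPM in the heat control, 74.1% at 44 °C and 40.7% at 42 °C.

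**Figure D2:**
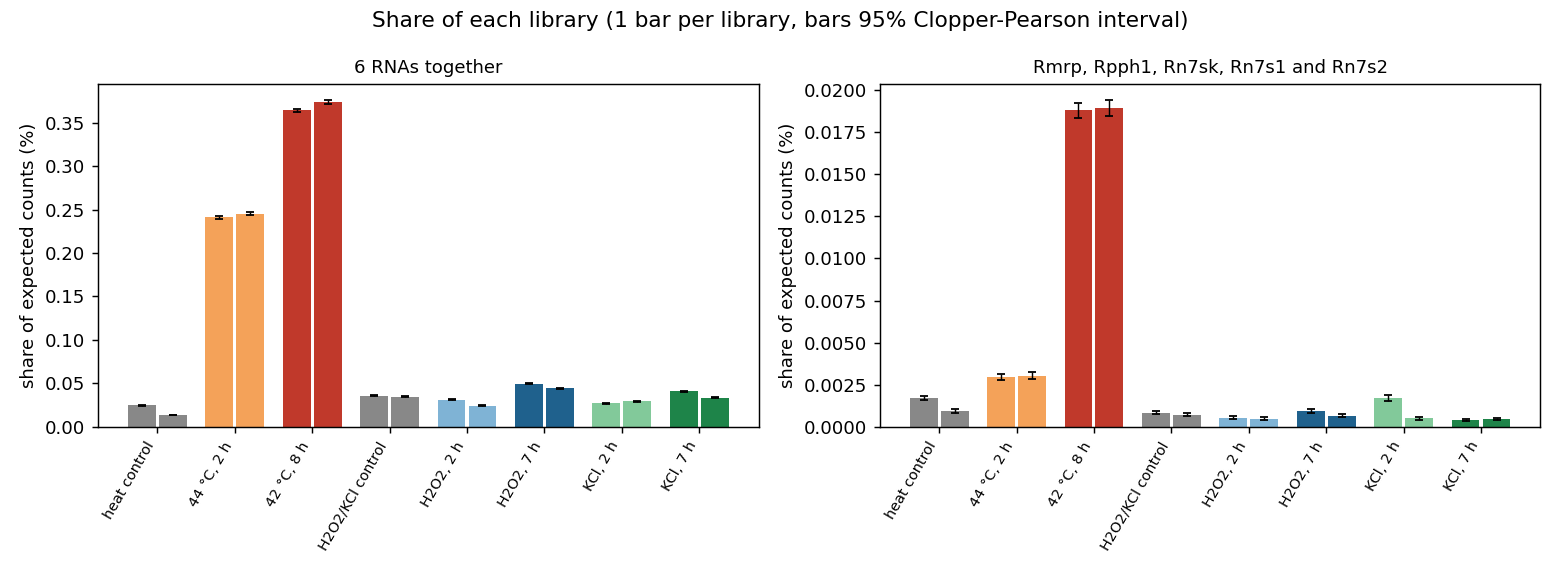
Share of all expected counts (%) held by the 6 RNAs (left) and by the 5 RNAs other than Rn45s (right), 1 bar per library, with 95% Clopper-Pearson intervals. With Rn45s the 44 °C libraries reach 0.241% and 0.245%; without it they average 0.00301%, against 0.0189% at 42 °C.

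Rmrp, Rpph1, Rn7sk and Rn45s were far lower in TPM throughout the H2O2/KCl experiment than after heat. This sets levels of 2 experiments side by side, and their controls differed. Mean TPM in the heat control and the H2O2/KCl control was 7.59 and 2.59 for Rn7sk, 62.5 and 35.2 for Rn7s1/2, and 65.2 and 120.8 for Rn45s. The highest level of Rmrp among the 10 libraries of this experiment was 2.72 TPM, that of Rpph1 9.0 TPM, that of Rn7sk 8.31 TPM and that of Rn45s 166 TPM. Rn7s1/2 came nearest, with 75.9 TPM in a library under 2 h of KCl against 107 TPM in the lower one at 44 °C. For every member, both heat groups ranked above all other groups and were apart from them. Below the heat groups, the groups overlapped with their neighbours in rank throughout for Rmrp, Rpph1 and Rn7sk. The 4 comparisons in this experiment share the same 2 control libraries, so their values are set side by side only.

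Rmrp was too low here to pass the filter, and 5 of the 6 RNAs passed it. It had 4 and 2 counts in the H2O2/KCl control, 7 and 3 after 2 h of H2O2, 2 and 1 after 7 h, 5 and 3 after 2 h of KCl, and 5 and 1 after 7 h. The scaled count ratio was 2.12 (95% exact interval 0.699 to 7.10) under 2 h of H2O2, 0.720 (0.116 to 3.37) at 7 h, 2.07 (0.630 to 7.24) under 2 h of KCl and 1.49 (0.397 to 5.56) at 7 h. All 4 intervals include 1, and a difference of this size was not detectable at this depth.

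Rpph1 stood at 3.73 and 2.01 TPM in the H2O2/KCl control. It was at 7.85 and 4.80 TPM after 2 h of H2O2, at 2.74 and 2.86 TPM after 7 h, at 9.0 and 6.99 TPM after 2 h of KCl, and at 6.92 and 8.72 TPM after 7 h. Both libraries of 3 of these groups were above the control, and 7 h of H2O2 overlapped with it. The log2 fold change was 1.08 (SE 0.38) under 2 h of H2O2, 1.57 (SE 0.37) under 2 h of KCl and 1.48 (SE 0.38) under 7 h of KCl, each on 43 to 46 counts against 27.

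Rn7sk had a different pattern among the stresses. It stood at 3.23 and 1.95 TPM in the control, 2.34 and 2.74 TPM after 2 h of H2O2, and 7.70 and 8.31 TPM after 7 h. After KCl it was at 8.03 and 3.23 TPM at 2 h and at 6.71 and 7.31 TPM at 7 h. It was above the control under 7 h of H2O2, with a log2 value of 1.65 (SE 0.39), and under 7 h of KCl, with 1.48 (SE 0.41). These values rest on 29 and 24 counts for H2O2 and 22 and 19 for KCl, against 17 and 8 in the control. Without H2O2/KCl control replicate 1 the value under 7 h of H2O2 was 2.09, and without replicate 2 it was 1.36. At 2 h of H2O2 Rn7sk overlapped with the control. At 2 h of KCl the value of 1.20 (SE 0.43) rested on replicate 1, and was 0.46 without it.

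Rn7s1/2 was below the control in more than one group. It stood at 37.7 and 32.8 TPM in the control and at 20.5 and 20.4 TPM after 2 h of H2O2, a log2 fold change of -0.79 (SE 0.42). After 7 h of KCl it was at 11.37 and 15.01 TPM, a log2 fold change of -1.33 (SE 0.48). Both groups lay wholly under the control. After 7 h of H2O2 it was at 38.5 and 25.2 TPM and overlapped with it. The libraries under 2 h of KCl were furthest apart, at 75.9 and 18.1 TPM, and the log2 fold change of 0.54 (SE 0.38) became -0.76 without replicate 1.

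Rn45s was lower at 2 h and higher at 7 h with either agent, by small amounts. It stood at 121.7 and 119.9 TPM in the control, at 111.6 and 86.4 TPM after 2 h of H2O2, and at 166 and 150.2 TPM after 7 h. After KCl it was at 92.4 and 110.2 TPM at 2 h and at 150.2 and 125 TPM at 7 h. No stress group overlapped with the control in TPM. The log2 fold changes were -0.29 (SE 0.12) and 0.47 (SE 0.12) for H2O2 and -0.16 (SE 0.12) and 0.29 (SE 0.12) for KCl. With scaling to the library total, the value under 7 h of KCl was 0.09, and as a share of all counts replicate 2 of that group was at 0.0328%, below both control libraries at 0.0348% and 0.0339%.

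Counted on CPM over the 6 rows, with Rn7s1 and Rn7s2 as separate rows, 2 were above and 3 below the control in both libraries under 2 h of H2O2, 2 and 0 at 7 h, 3 and 1 under 2 h of KCl, and 3 and 2 under 7 h of KCl. In TPM, Rn7sk under 2 h of KCl would not count as above, since its lower library and the upper control library were both at 3.23. Of all genes tested, 39.1% were above and 39.0% below under 2 h of H2O2, 47.2% and 38.9% at 7 h, 37.4% and 37.9% under 2 h of KCl, and 44.3% and 39.0% under 7 h of KCl. As the rule used these contrasts, nothing is read from the counts.

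The likeness of the RNAs to each other rested on the heat libraries. On log2(CPM + 1), where CPM is counts per 1000000 after TMM normalization and each experiment is centred on its control, Rmrp and Rpph1 had a Pearson r of 0.994 over the 16 libraries, Rmrp and Rn7sk 0.987, and Rpph1 and Rn7sk 0.985. Among 11591 genes these were the closest to each other. Values with Rn7s1/2 lay between 0.795 and 0.837, and Rn45s correlated with Rmrp at 0.860 and with Rpph1 at 0.861. Within the 10 H2O2/KCl libraries r was 0.654 for Rmrp with Rpph1 but -0.072 for Rmrp with Rn7sk and 0.230 for Rpph1 with Rn7sk. In these 10 libraries Rmrp had at most 7 counts, Rpph1 at most 26 and Rn7sk at most 29. Counting error therefore weighs on these r values, and no loss of likeness outside heat is read from them. The libraries share control groups and depth, so r is a description.

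Rn4.5s, a short RNA polymerase III transcript of rodents, was the next closest to both Rmrp (r = 0.969) and Rn7sk (r = 0.978). It had 15 and 17 counts in the heat control, 25 and 35 after 44 °C, and 236 and 196 after 42 °C. Rpph1 had Ubqln1, which shuttles proteins to the proteasome, as its next closest gene after these (r = 0.965), and it ran from 209 ± 2.15 to 311 ± 2.11 CPM (SD, n = 2) between heat control and 42 °C, far less than the RNA itself. Rn7s1/2 was most like Bpnt1 (r = 0.896) and Septin7 (r = 0.881). The row Septin7 is a second symbol of Sept7, and it held 0 counts in 4 of the 8 groups and 8.62 ± 4.51 CPM (SD, n = 2) at 42 °C, against 306 CPM for the row Sept7, so it is not reliable alone. Rn45s was most like Slc25a38 (r = 0.966), Uspl1 (r = 0.965) and Cacybp (r = 0.95), and Cacybp was at 73.6 ± 1.74, 139 ± 1.31 and 147 ± 5.34 CPM (SD, n = 2) in heat control, at 44 °C and at 42 °C.

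Other RNAs made without a polyA tail were mostly out of reach. Of 32 rows of snoRNAs, scaRNAs, snRNAs, Y RNAs, telomerase RNA and vault RNA, 27 were at 0 in all 16 libraries. Vaultrc5, a vault RNA also made by RNA polymerase III, had 0 summed counts in the heat control, 2 at 44 °C and 55 at 42 °C. Terc, the telomerase RNA made by RNA polymerase II, had 9, 25 and 6. Replication-dependent histone mRNAs, picked here by symbol, usually end in a stem-loop in place of a tail. Whether the transcripts counted here carried a tail was not tested. Of the rows tested, more were called higher than lower after heat. Of 68, 41 were tested; with the quasi-likelihood test of edgeR at an adjusted p of 0.05, 26 rose and 4 fell at 44 °C (median log2 fold change 1.14), where 35.4% of all genes were called higher and 35.7% lower, and 16 rose and 5 fell at 42 °C (median 0.68), where 31.7% were higher and 31.9% lower. With scaling to the library total the counts at 42 °C were 14 and 8. In the H2O2/KCl experiment 24 of the 68 were tested. Under H2O2 1 rose and 8 fell at 2 h, where 27.3% of all genes were higher and 26.5% lower. At 7 h 0 rose and 7 fell, where 39.4% were higher and 31.1% lower. Under KCl 2 rose and 3 fell at 2 h, where 27.2% were higher and 27.0% lower. At 7 h 6 rose and 1 fell, where 37.2% were higher and 31.6% lower. With scaling to the library total the counts under 7 h of KCl were 4 and 3. A row can pass the count minimum through heated libraries alone, and such a row can hardly be called lower. Such rows were not counted, so nothing is read from the balance of calls. The summed level of the 68 histone rows went the other way from the heat calls. It was 113 and 99.9 CPM in the heat control and 66.8 and 63.3 CPM at 42 °C. Hist1h2ap alone made up 51.8% of that sum in the control, and it went from 55.2 to 10.9 CPM.

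The protein-coding genes nearest to the RNAs were set beside them, chosen by distance and without regard to strand. The series asks about transcription entering from a neighbour, and the upstream genes in the authors' pairs are given further below. Positions are from RefSeq on GRCm38.p6, the assembly called mm10 in the submitters' processing notes. Rmrp lies at chr4:43492785-43493059, 280 bases from Ccdc107, a coiled-coil protein gene. Rpph1 lies at chr14:50807447-50807771, 125 bases from Parp2, which makes a DNA repair enzyme. Ccdc107 and Parp2 lie on the plus strand at the higher coordinates, so they are transcribed away from Rmrp and Rpph1. The levels of Ccdc107 and Parp2 therefore do not bear on transcription entering these RNAs. Rn7sk lies at chr9:78175302-78175633, Rn7s1 at chr12:69159295-69159593 and Rn7s2 at chr12:69361183-69361481. Rn7s1 is 108 bases from Rps29, a ribosomal protein gene, and Rn7sk is 3187 bases from Ick, which encodes a kinase. On its other side C920006O11Rik, a long noncoding RNA gene, lies nearer to Rn7sk, at 280 bases, and was not analysed here. Rn45s had no position in that table. Each of the 5 is annotated as a noncoding RNA gene.

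Of the promoter windows in the RefSeq table, those of Ccdc107 and Parp2 reach into the spaces beside Rmrp and Rpph1, and 0 of the 6 RNAs had a window of their own. The sequence of these spaces is shown because the RNA and the protein gene on its 2 sides had fold changes of very different size. It is printed 5′ to 3′ on the plus strand, from chr4:43493115-43493339 (225 of the 280 bases between Rmrp and Ccdc107) and from chr14:50807772-50807896 (all 125 bases between Rpph1 and Parp2). Capitals mark the octamer ATGCAAAT or its reverse complement ATTTGCAT, the letters bound by Pou2f1, an activator of RNA polymerase III genes of this class.
Rmrp to Ccdc107: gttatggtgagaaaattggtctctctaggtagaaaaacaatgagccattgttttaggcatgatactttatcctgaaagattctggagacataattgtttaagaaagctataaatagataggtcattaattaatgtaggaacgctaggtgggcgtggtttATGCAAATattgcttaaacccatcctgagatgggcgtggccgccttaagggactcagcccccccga
Rpph1 to Parp2: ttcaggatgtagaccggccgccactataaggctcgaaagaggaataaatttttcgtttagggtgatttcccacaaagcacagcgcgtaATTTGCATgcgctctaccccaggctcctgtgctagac
Each printed stretch held 1 match, with both strands counted and the rest of the space beside Rmrp not searched, and 570 of 32851 RefSeq promoter windows of 300 bases (1.74%) hold at least 1. A match is a description of letters and no evidence of binding.

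Ccdc107 and Parp2, across these short spaces, showed no called difference after heat, while Rps29, Lrr1, Ick and Nemf did in at least 1 treatment. Ccdc107 was at 22.9 ± 0.115 CPM (SD, n = 2) in the heat control, 25.3 ± 2.64 at 44 °C and 20.6 ± 0.476 at 42 °C. Its log2 fold changes of 0.14 and -0.15 did not pass the quasi-likelihood test of edgeR (adjusted p 0.086 and 0.091). Parp2 was at 40.9 ± 0.797, 38.3 ± 0.385 and 42.2 ± 0.298 CPM, with log2 fold changes of -0.09 and 0.04 (edgeR adjusted p 0.12 and 0.47). Rps29 fell by 0.13 (SE 0.046, edgeR adjusted p 0.019) at 44 °C and rose by 0.23 (SE 0.046, edgeR adjusted p 0.00051) at 42 °C. Lrr1, 9220 bases from Rn7s1 on its other side, rose by 0.71 (SE 0.10, edgeR adjusted p 1.81e-05) and by 0.43 (SE 0.10, edgeR adjusted p 0.0024). Ick fell by 0.30 (SE 0.070, edgeR adjusted p 0.0017) and by 0.66 (SE 0.073, edgeR adjusted p 2.92e-06). Nemf beside Rn7s2 had no call at 44 °C (0.09, edgeR adjusted p 0.084) and rose by 0.34 (SE 0.043, edgeR adjusted p 1.06e-05) at 42 °C. The difference between an RNA and its neighbour was not tested itself.

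**Figure D3:**
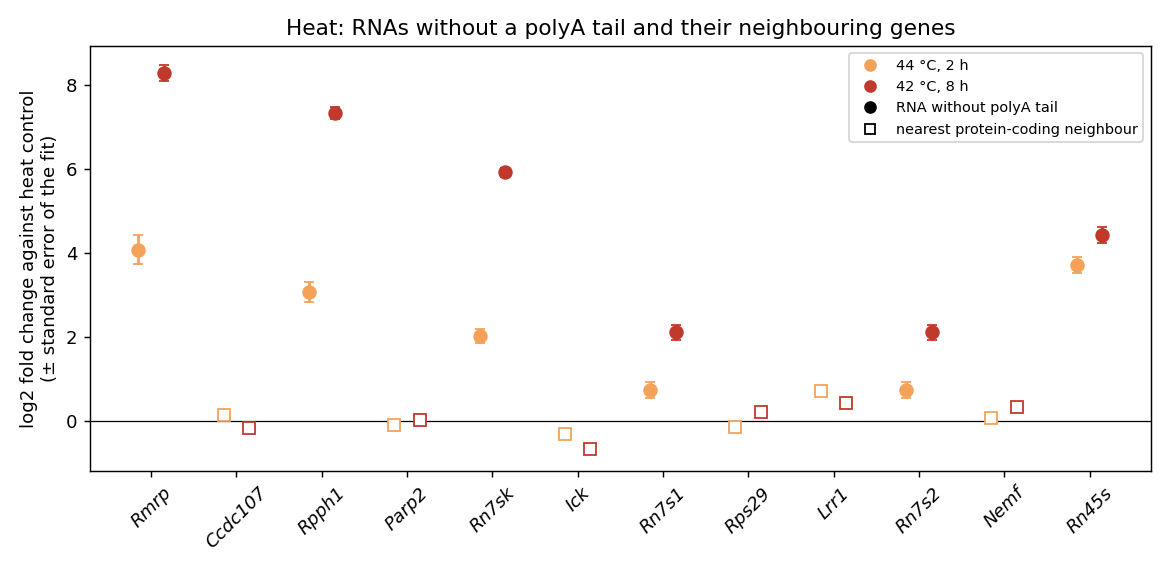
Log2 fold change against the heat control with the standard error of the fit, at 44 °C for 2 h and 42 °C for 8 h, for the RNAs (filled circles) and protein-coding neighbours (open squares). Ccdc107 and Parp2 lie within 0.15 of 0 while Rmrp and Rpph1 beside them reach 8.30 and 7.34 at 42 °C. Ccdc107 and Parp2 are transcribed away from Rmrp and Rpph1.

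The authors' deposited calls of transcription past a gene's end covered 5 pairs that hold 1 of the RNAs: Rn7s2 with Nemf, Rpph1 with Ccnb1ip1, Tep1 with Rpph1, Rmrp with Sit1, and Arhgef39 with Rmrp, the upstream gene named first. Transcripts running on downstream of the first gene, called DoGs, were called in 8 of 80 pair-libraries (10%), against 28.5% over all pairs and libraries. The same 5 pairs were counted in every library, and Rmrp and Rpph1 had few counts outside heat. Nothing is therefore read from this difference. Read-in, transcription that reaches the second gene, was called in 0 of the 80, against 1.38% over all pairs. Only Tep1 with Rpph1 and Arhgef39 with Rmrp bear on read-in to 1 of the RNAs, which is the upstream gene in the others. An estimate was given in 2 libraries for Rpph1 with Ccnb1ip1 and in 5 for Rmrp with Sit1. At a background of 1.38%, 0 calls in so few pair-libraries are not informative. At 42 °C the authors' read-in estimate for Arhgef39 into Rmrp was 0.00055 and 0.00035. It was 0 and 0.055 in the heat control, 0 and 0.0095 at 44 °C, 0.0917 in replicate 2 under 2 h of H2O2 and 0.055 in replicate 1 under 7 h of KCl, and 0 in the other 8 libraries. Arhgef39 itself fell by 0.39 (SE 0.073, edgeR adjusted p 0.00033) at 42 °C and rose by 0.86 (SE 0.065, edgeR adjusted p 3.81e-08) at 44 °C. The estimate for Tep1 into Rpph1 was 0.0232 in heat control replicate 1 and 0.000127 in replicate 1 at 42 °C. It was 0.0191 in replicate 2 under 2 h of H2O2, 0.0325 in replicate 1 under 7 h of H2O2, and 0 in all other libraries. Tep1 itself fell by 0.25 (SE 0.057, edgeR adjusted p 0.0013) at 44 °C and by 0.31 (SE 0.057, edgeR adjusted p 0.00029) at 42 °C.

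The protein partners of the RNAs were counted as lists that contain none of the 6, with the quasi-likelihood test of edgeR and p-values adjusted over all genes, at 0.05. Over all genes tested, 35.4% were called higher and 35.7% lower after 44 °C, 31.7% and 31.9% after 42 °C, 27.3% and 26.5% under 2 h of H2O2, 39.4% and 31.1% under 7 h of H2O2, 27.2% and 27.0% under 2 h of KCl, and 37.2% and 31.6% under 7 h of KCl. With scaling to the library total the calls at 42 °C were 2574 higher and 5869 lower in place of 4041 and 4072, so directions at 42 °C are relative to the normalization. That scaling also moved the median of all genes to -0.17 under 2 h of KCl and to -0.15 under 7 h of KCl.

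Of the 11 proteins of RNase P and RNase MRP, 4 rose and 2 fell at 42 °C, with a median log2 fold change of 0.01 against -0.014 for all genes. Pop5, a subunit shared by both enzymes, rose by 0.40 (SE 0.070, edgeR adjusted p 0.00018). Rpp38 fell by 1.16 (SE 0.13, edgeR adjusted p 2.95e-06) on the log2 scale. At 44 °C 7 rose and 2 fell, with a median of 0.26, and Pop5 again rose, by 0.70 (SE 0.068). The RNAs these proteins bind had log2 values of 8.30 and 7.34 at 42 °C.

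Among 7 genes of the 7SK particle and P-TEFb, 3 rose and 3 fell at 42 °C (median -0.05), or 2 and 4 with scaling to the library total, and 4 rose and 2 fell at 44 °C (median 0.41). Ccnt1, the cyclin subunit of P-TEFb, rose at both, by 0.91 (SE 0.043) at 44 °C and 0.53 (SE 0.043) at 42 °C. Hexim1 and Hexim2, the proteins through which 7SK inhibits P-TEFb, both fell at 42 °C, Hexim1 by 0.48 (SE 0.060) and Hexim2 by 1.57 (SE 0.17). Of 10 genes of the signal recognition particle and its receptor, 1 rose and 7 fell at 44 °C (median -0.16), among them Srp72 by 0.75 (SE 0.041). At 42 °C 3 rose and 0 fell (median 0.04), but with scaling to the library total 1 rose and 5 fell.

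RNA polymerase III and its factors gave 11 higher and 5 lower of 31 at 44 °C (median 0.07), and 13 and 7 at 42 °C (median 0.10). With scaling to the library total the counts were 17 and 2, and 9 and 14. Polr3g, a polymerase subunit, rose by 0.76 (SE 0.079) at 42 °C, and Brf2, the initiation factor used at the promoters of Rmrp, Rpph1 and Rn7sk, fell by 0.60 (SE 0.072). At 2 h of KCl 2 rose and 19 fell (median -0.28), Brf2 by 2.02 (SE 0.12). RNA polymerase I and its factors gave 8 higher and 2 lower of 15 at 44 °C (median 0.14), and 8 and 1 at 42 °C (median 0.37). Taf1d, a subunit of the factor that selects the ribosomal RNA promoter, rose by 1.22 (SE 0.060) at 42 °C, while Taf1b of the same factor fell by 1.45 (SE 0.096) at 44 °C.

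The list of nuclear tailing and exosome genes, whose products add short tails to noncoding RNA and trim or degrade it, went in opposite directions in the heat treatments. Of 21 rows, 1 rose and 13 fell at 44 °C (median -0.21), and 13 rose and 1 fell at 42 °C (median 0.22). In the direct comparison of 42 °C with 44 °C, 16 were higher and 1 lower (median 0.40), where 37.9% of all genes were called higher and 37.2% lower. With scaling to the library total these counts were 2 and 12 at 44 °C, 9 and 3 at 42 °C, and 14 and 2 in the direct comparison. Dis3, a catalytic subunit of the exosome, fell by 0.38 at 44 °C (edgeR adjusted p 1.84e-05) and rose by 0.59 (SE 0.051, edgeR adjusted p 2.44e-07) at 42 °C. Parn, which removes oligoadenylate tails, fell by 0.87 (SE 0.059) at 44 °C. Exosc4 fell by 0.38 (SE 0.079) at 42 °C. Tent4b and Papd5 are 2 symbols of 1 tailing enzyme between which its reads are divided, so neither row is reliable alone. Without both, 1 of 19 rose and 13 fell at 44 °C, 12 rose and 1 fell at 42 °C, and 16 were higher and 0 lower in the direct comparison; with scaling to the library total these were 2 and 12, 8 and 3, and 14 and 1. Their summed level was 58.4 CPM in the heat control, 81.5 at 44 °C and 85.4 at 42 °C. Any part of these genes in the levels of the 6 RNAs was not tested.

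**Figure D4:**
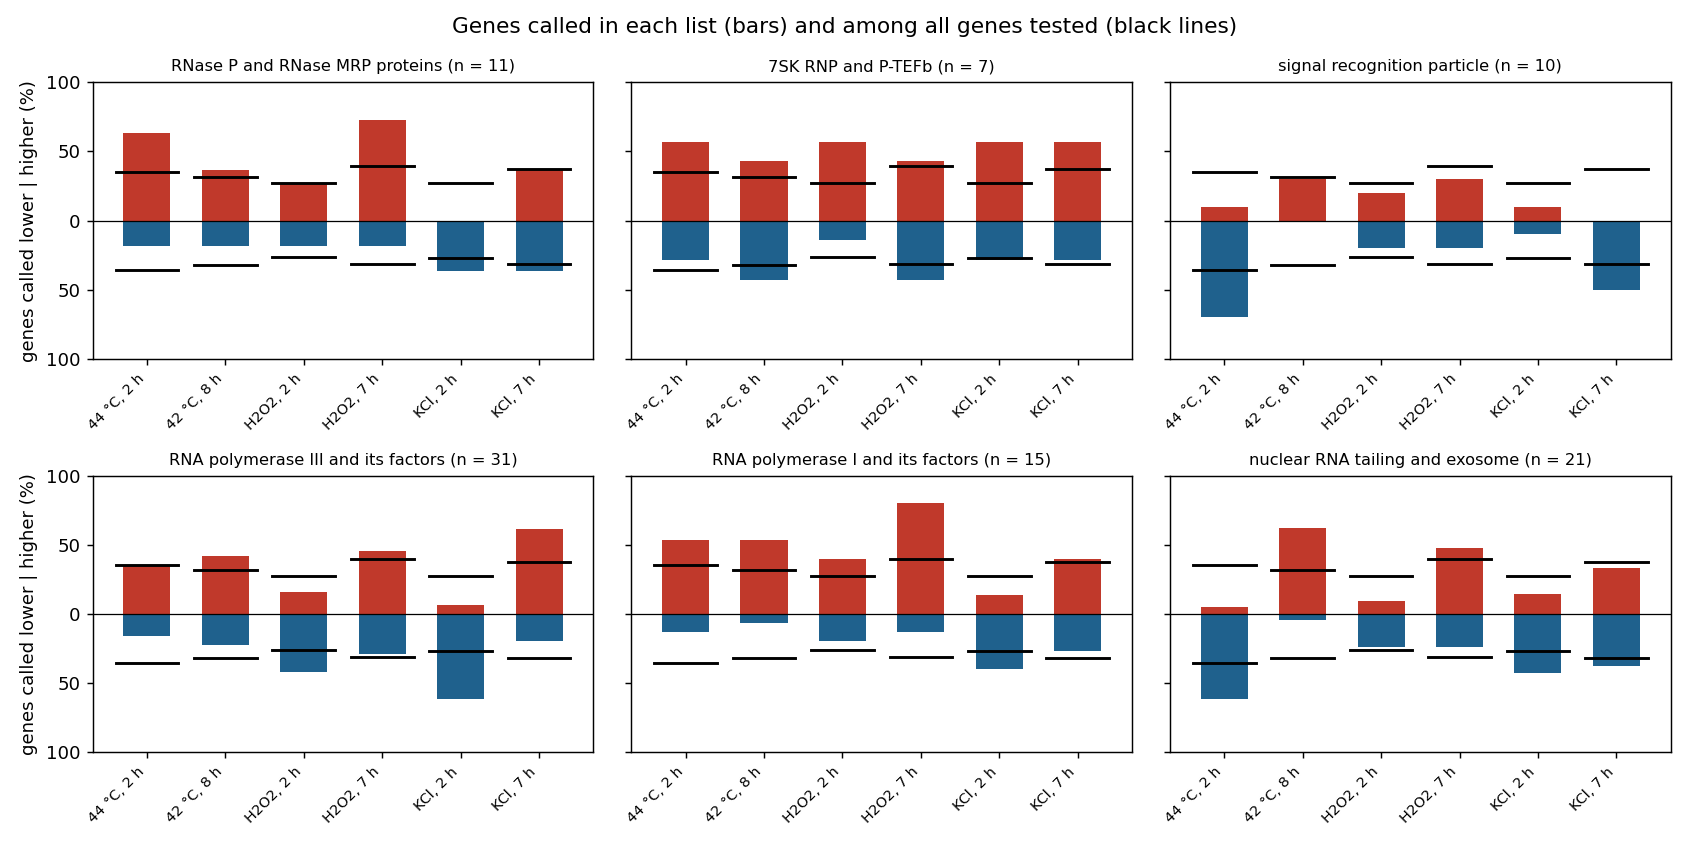
Percentage of the genes of each list called higher (red, up) or lower (blue, down) in each stress, with black lines for the percentage over all genes tested. In the tailing and exosome panel the bars at 44 °C and 42 °C point in opposite directions, with 13 of 21 rows lower and 13 of 21 higher, Tent4b and Papd5 among the 21.

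In the H2O2/KCl experiment the lists did not share a direction. RNase P and RNase MRP proteins gave 3 higher and 2 lower under 2 h of H2O2, 8 and 2 at 7 h, 0 and 4 under 2 h of KCl, and 4 and 4 under 7 h of KCl. Rpp38 rose by 1.02 (SE 0.12) under 2 h of H2O2 and fell by 2.26 (SE 0.19) under 2 h of KCl. The 7SK and P-TEFb genes gave 4 and 1, 3 and 3, 4 and 2, and 4 and 2 in that order. Signal recognition particle genes gave 2 and 2, 3 and 2, 1 and 1, and 0 and 5. At 7 h of KCl, where Rn7s1/2 was at its lowest, Srp54a had a log2 fold change of -1.15 (SE 0.075) and Srp68 one of -0.99 (SE 0.056). RNA polymerase III and its factors gave 5 and 13, 14 and 9, 2 and 19, and 19 and 6. RNA polymerase I and its factors gave 6 and 3, 12 and 2, 2 and 6, and 6 and 4, and the tailing and exosome genes 2 and 5, 10 and 5, 3 and 9, and 7 and 8. Without Tent4b and Papd5 the last list gave 1 and 5, 9 and 4, 2 and 8, and 6 and 8.

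Scaling to the library total moved the KCl counts towards lower, and over all genes the calls became 2395 higher and 5573 lower under 2 h of KCl and 3612 and 5700 under 7 h. RNA polymerase III and its factors then gave 2 higher and 28 lower at 2 h and 11 and 12 at 7 h. RNA polymerase I and its factors gave 1 and 11, then 4 and 7. The tailing and exosome rows gave 2 and 14, then 4 and 13, the signal recognition particle genes 0 and 4, then 0 and 9, and the RNase P and RNase MRP proteins 0 and 6, then 3 and 5. The 7SK and P-TEFb genes gave 4 and 3, then 4 and 2. Directions under KCl are therefore relative to the normalization, as at 42 °C.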

How the data were processed

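The members and gene lists were chosen with earlier results of these data known. Expected counts per gene were deposited by the authors as whole numbers for 16 polyA-selected RNA libraries, with TPM (per transcript length, summing to about 1000000) from the same runs. The submitters' processing notes name mm10, STAR, RSEM and Bowtie, with no versions or roles. The authors also deposited DoG and read-in calls (true or false) and read-in estimates, a ratio with no stated formula. The footprint tables, which also held 6 columns that matched no labelled sample, had 0 rows for the 6 RNAs, so the planned footprint test was not run and translation was not analysed here.

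The heat libraries (6) and the H2O2/KCl libraries (10) were fitted separately with edgeR 4.0.16 in R 4.3.3 (glmQLFit, TMM, filterByExpr, group as the only term), with Benjamini-Hochberg adjustment over all 12747 and 13256 genes tested and a threshold of 0.05. The standard error is the log2 fold change divided by the root of the F statistic. Members' RNA received no test. Levels between genes are compared in TPM. Intervals of shares are 95% Clopper-Pearson, and of count ratios 95% exact binomial; reads are not independent molecules, so both cover counting error only.

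Named were the 6 members, up to 2 genes higher and 2 lower with the largest change per list and stress, the 3 genes most correlated with each member among those with a mean CPM of at least 1, and the nearest annotated neighbours. Beyond this rule, Vaultrc5, Terc, Arhgef39, Tep1 and Dis3 at 44 °C, the sum of Tent4b and Papd5, Sept7 and Hist1h2ap were chosen after their values were seen. Alternatives were RLE size factors, library totals, no filter, only the compared groups, a replicate block, each replicate left out, log2(TPM + 1) and log2(TPM + 0.1), Rn7s1 and Rn7s2 summed, and DESeq2 1.42.0. Leaving Rn45s out of the table, library totals for the lists and histones, and the tailing list without Tent4b and Papd5 were added after seeing the data. On simulated counts the edgeR step was checked for recovery of known changes.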

Additional observations from a re-analysis of the deposited data

Results flagged for a closer look

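Rn45s lay on opposite sides of the H2O2/KCl control at the 2 times of each agent, in both libraries of every group, by TPM and by TMM-normalized CPM. As a share of all counts this did not hold under 7 h of KCl, where replicate 2 was at 0.0328% and the control libraries at 0.0348% and 0.0339%, and with scaling to the library total that log2 fold change was 0.09. Its log2 fold change was -0.29 at 2 h and 0.47 under 7 h of H2O2, and -0.16 at 2 h and 0.29 under 7 h of KCl. The difference between times was not tested, and the 4 values share the same 2 control libraries.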

How the results depend on the processing

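With all libraries kept, 266 recomputed fold changes of members moved by less than the spread between replicates and 4 by more. Rn7s1 and Rn7s2 were counted as separate rows here. At 42 °C Rn7sk moved from 5.94 to 5.80 with scaling to the library total, to 5.58 on log2(TPM + 1) and to 5.74 on log2(TPM + 0.1). Rn45s under 2 h of KCl moved to -0.34 with library totals. With 1 library left out, 127 fold changes moved by less than the spread and 1 by more. Near 0, Rpph1 under 7 h of H2O2 and Rn7sk under 2 h of H2O2 took the other sign on TPM or without H2O2/KCl control replicate 1. Rn7s1/2 under 7 h of H2O2 did so without that control replicate or without H2O2 replicate 2. Of the recomputed shares of the library, 15 moved by more than the spread between replicates and 1 by less. The share of the library in TPM was 0.121% at 44 °C and 0.307% at 42 °C. In TPM it was 0.0198% in the H2O2/KCl control, 0.0151% and 0.0233% for 2 h and then 7 h of H2O2, and 0.0211% and 0.0180% for 2 h and then 7 h of KCl. By counts without Rn45s the shares were 0.00132% in the heat control, 0.00301% at 44 °C, 0.0189% at 42 °C, 0.00077% in the H2O2/KCl control, 0.00050% and 0.00078% for 2 h and then 7 h of H2O2, and 0.00109% and 0.00041% for 2 h and then 7 h of KCl. These shares use another unit or leave out Rn45s, so their sizes are not directly comparable with the count shares of all 6. In the heat control the mean TPM share was 0.0203% and the mean count share 0.0190%.

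Partner protein genes called under 2 h of H2O2 numbered 14, and 9 to 11 with 1 library left out, the lowest without H2O2 replicate 2. With the replicate number as a block, partner protein genes called numbered 23 at 44 °C and 15 at 42 °C, as without it, and Rmrp at 42 °C was 8.30. Same-numbered libraries shared little of their deviations, which correlated at 0.036 to 0.11 in heat and at -0.13 to 0.17 in H2O2/KCl. A weak pairing by replicate number is not excluded. The planned footprint alternatives were not run, as no member is in those tables. Low control counts of Rmrp limit its fold.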
